A study of Mus musculus with 12 samples.

Results

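The retinas of mice with oxygen-induced retinopathy were compared with those of room air controls, both given placebo. The comparison took 8 of the 12 RNA-seq libraries of the study, chosen by their labels alone, and covered every gene that passed a filter on low counts. The RA-PBS group held animals 1 to 4 and the O2-PBS group animals 5 to 8, with 1 library of retinal RNA from each mouse. All 8 mice were C57BL/6J wildtype, were sampled at postnatal day 18 (P18) and had received PBS, the vehicle that served as placebo for the antibody IC100. The O2-PBS mice had breathed 75% O2 from P7 together with nursing mothers that were exchanged with mothers in room air, and went back to room air at P12 by the labels, a day earlier by the study's methods. The RA-PBS mice were kept in room air throughout. The model needs no transgene, and the labels give neither sex, litter nor sequencing batch. The other 4 libraries, of mice given IC100 after hyperoxia, entered only as a reference for lens RNA and in alternative fits.

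In this model high oxygen stops and prunes the growing vessels of the neonatal retina. On return to room air the avascular retina is hypoxic, hypoxia-inducible factors (HIF) are stabilised, and neurons and Muller glia release vascular endothelial growth factor and other factors. New vessels then sprout behind tip cells, the leading endothelial cells of a sprout, and part of them leave the retina as tufts. In the mouse the tufts stand near their peak around the age sampled here.

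Esm1, Edn2, Fgf2 and Vegfa were given as markers of this response, and all 4 were higher in O2-PBS (below, log2 fold changes of 5.96, 5.08, 2.36 and 1.18). Because HIF binds DNA at the core letters ACGTG or GCGTG, the promoters of the markers and of the HIF target Adm are shown, from 250 bases before to 50 bases after the transcription start. They were taken from RefSeq (build GRCm38.p6), 5' to 3' on the strand of the gene, with either core or its reverse complement (CACGT or CACGC) in capitals. Matches may share bases, as where ACGTG and CACGT form CACGTG.
Esm1, chr13:113209409-113209708, plus strand: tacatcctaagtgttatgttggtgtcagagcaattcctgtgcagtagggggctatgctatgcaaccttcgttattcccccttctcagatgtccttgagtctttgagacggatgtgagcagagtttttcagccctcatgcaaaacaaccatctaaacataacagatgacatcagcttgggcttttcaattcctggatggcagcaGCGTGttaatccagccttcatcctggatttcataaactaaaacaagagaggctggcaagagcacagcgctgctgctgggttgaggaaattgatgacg
Edn2, chr4:120160956-120161255, plus strand: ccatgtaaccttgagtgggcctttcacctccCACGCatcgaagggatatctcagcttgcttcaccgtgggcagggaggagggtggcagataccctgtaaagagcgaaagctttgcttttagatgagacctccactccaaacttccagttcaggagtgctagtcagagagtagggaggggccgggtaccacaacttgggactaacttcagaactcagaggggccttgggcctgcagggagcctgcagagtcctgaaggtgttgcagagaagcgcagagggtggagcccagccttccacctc
Fgf2, chr3:37348403-37348702, plus strand: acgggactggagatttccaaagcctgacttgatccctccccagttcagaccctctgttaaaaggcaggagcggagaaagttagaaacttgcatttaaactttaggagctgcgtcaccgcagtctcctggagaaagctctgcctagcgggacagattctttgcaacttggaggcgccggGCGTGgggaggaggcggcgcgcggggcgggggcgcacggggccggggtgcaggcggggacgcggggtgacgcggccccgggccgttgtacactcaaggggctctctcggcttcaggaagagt
Vegfa, first start, chr17:46032328-46032627, minus strand: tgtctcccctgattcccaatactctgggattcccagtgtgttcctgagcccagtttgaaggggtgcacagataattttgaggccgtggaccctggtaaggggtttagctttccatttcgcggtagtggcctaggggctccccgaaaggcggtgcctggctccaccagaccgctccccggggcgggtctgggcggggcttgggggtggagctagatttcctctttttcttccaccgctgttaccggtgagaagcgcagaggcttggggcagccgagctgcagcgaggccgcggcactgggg
Vegfa, second start, chr17:46025114-46025413, minus strand: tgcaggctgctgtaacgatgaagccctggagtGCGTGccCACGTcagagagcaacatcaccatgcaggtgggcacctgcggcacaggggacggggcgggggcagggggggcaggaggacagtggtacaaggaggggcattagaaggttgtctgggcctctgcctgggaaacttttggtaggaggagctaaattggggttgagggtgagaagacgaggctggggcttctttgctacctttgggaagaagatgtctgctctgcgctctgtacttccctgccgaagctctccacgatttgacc
Adm, chr7:110627407-110627706, plus strand: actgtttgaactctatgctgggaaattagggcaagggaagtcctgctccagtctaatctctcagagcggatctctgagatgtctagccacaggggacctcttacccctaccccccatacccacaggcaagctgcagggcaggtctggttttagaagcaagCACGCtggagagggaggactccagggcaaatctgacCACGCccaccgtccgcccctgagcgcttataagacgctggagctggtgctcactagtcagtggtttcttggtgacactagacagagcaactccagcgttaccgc
The windows of Esm1, Edn2 and Fgf2 held 1 core each, at 47, 219 and 72 bases before the start, and that of Adm held 2. The first Vegfa window held 0 and the second 2. On the minus strand the second start lies downstream of the first, so both of these cores lie after the first start. A window without the letters says nothing about binding elsewhere.

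A core was present in 43.8% of all 32851 RefSeq promoters of this length and in 58.0% of the 15318 promoters of tested genes. Among promoters of genes that rose in O2-PBS the share was 53.9% (292 of 542), among those of genes that fell 41.2% (117 of 284), and among those of genes not past the thresholds 58.4%. Promoters of the hypoxia target list carried it in 24 of 30 cases. The letters were thus no more common before genes that rose than before the other tested genes.

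Depth was similar in the groups, and several properties of single libraries have to be read beside every result. Total counts were 16457897 to 19146287 in RA-PBS and 14907143 to 17239036 in O2-PBS, so that 3 counts, the limit that a count of 0 allows, came to at most 2.01e-05% of a library. Rod photoreceptor genes took 5.40 to 6.66% of the counts in all 8 libraries. Crystallin genes, which mark lens tissue, took 1.25, 4.5 and 1.44% of the counts in RA-PBS animals 2, 3 and 4, but 0.00315% in RA-PBS animal 1 and 0.00303 to 0.0158% in O2-PBS. For single libraries the 95% Wilson intervals of these shares, which cover counting error only, were 4.49 to 4.51% in RA-PBS animal 3 and 0.00289 to 0.00343% in RA-PBS animal 1. The difference in log10 crystallin share did not reach the threshold (p = 0.114, exact permutation test, two-sided, 70 assignments), because 1 control lacked lens RNA.

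RA-PBS animal 1 differed from the other 7 libraries in complexity. Counts were found for 17615 genes in it against 20571 to 21079 in the others, and 103 genes with at least 10 counts in each of the other 7 libraries were at 0 in it. Genes of the mitochondrial genome took 3.98, 2.66, 2.50 and 3.49% of counts in RA-PBS animals 1 to 4 and 2.08, 2.43, 2.30 and 2.27% in O2-PBS, without overlap (O2-PBS minus RA-PBS -0.886 percentage points, p = 0.0286, exact permutation test, two-sided, the smallest that 4 against 4 can give). The 4 Y-linked genes summed to 251, 295, 239 and 5.99 parts per M of the raw library total in RA-PBS and to 8.82, 10.9, 9.38 and 259 in O2-PBS, so that 3 RA-PBS libraries but only 1 O2-PBS library had high Y-linked counts. Correlations of log2 CPM were 0.943 to 0.987 within RA-PBS and 0.985 to 0.990 within O2-PBS, and 0.944 to 0.974 between the groups, so that some RA-PBS pairs were less alike than pairs across groups.

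**Figure D1:**
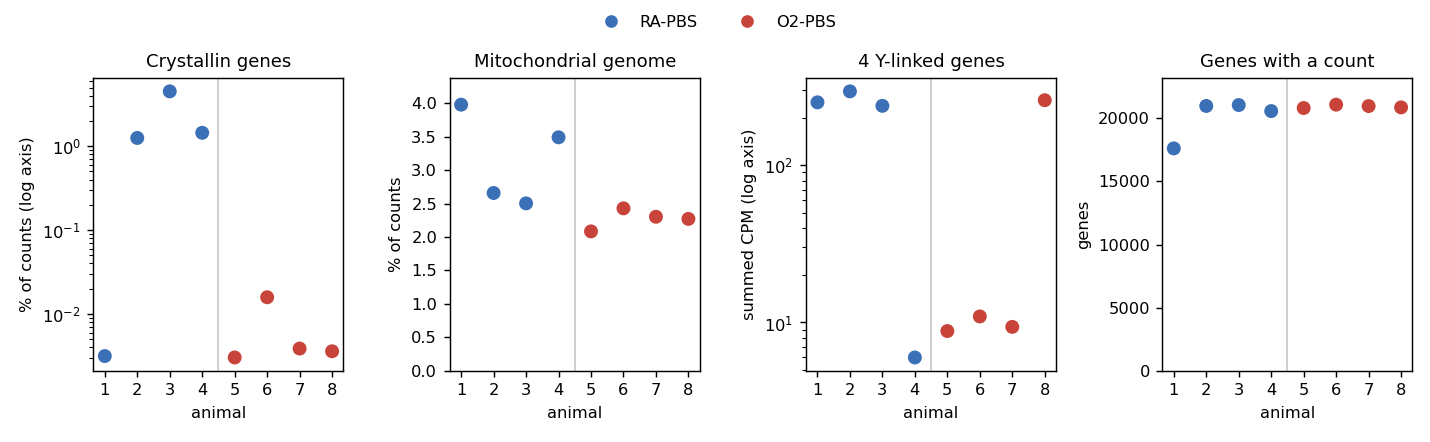
Properties of the 8 libraries by animal: share of counts of crystallin genes (log axis), share of counts of the mitochondrial genome, summed CPM of 4 Y-linked genes over the raw library total (log axis) and number of genes with a count; each point is 1 library, blue for RA-PBS and red for O2-PBS. Crystallin shares of RA-PBS animals 2 to 4 stand above 1% and that of RA-PBS animal 1 among the O2-PBS libraries at 0.00303 to 0.0158%.

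A gene was called higher or lower where the fold change was at least 1.5, the p-value under 0.05 and the adjusted p-value under 0.1 (edgeR, Benjamini-Hochberg), the thresholds of the study. Of 16165 genes tested, 570 (3.53%) rose and 297 (1.84%) fell in O2-PBS, 5.36% in all. Each list count below is to be read against these shares of 3.53% higher and 1.84% lower. The increases were the larger changes, with a median log2 fold change of 1.12 against -0.77 among genes that fell, and 71 genes rose against 23 that fell by over 4-fold. The median of all tested genes was -0.02. In 547 of the genes that rose all O2-PBS retinas were above all RA-PBS retinas, and in 259 of those that fell all were below; over all tested genes such separation was found in 7.55 and 6.92%.

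The balance between increases and decreases depended on scaling, and the calls on lens RNA and on the libraries. Genes that rose made up 65.7% of the calls with TMM scaling, 75.7% with upper quartile scaling (631 higher, 203 lower) and 77.3% with library totals (667 and 196). A lens mark was given to every gene at least 4-fold higher in the lens-rich O2-IC100 animal 10 than in the other 3 O2-IC100 libraries, which held for 8.75% of tested genes. O2-IC100 animal 10 had only 18318 genes with a count, and 124 genes with at least 10 counts in every placebo library were at 0 in it. The mark rests on this 1 library and is not specific to lens. All 5 tested red cell genes and all 11 tested pigment epithelium genes carried the mark. The mark fell on 86 of the 570 genes that rose and on 80 of the 297 that fell, among them 18 of the 23 that fell by over 4-fold. Without lens-marked genes 484 rose and 217 fell. Lens RNA in these 8 libraries lay mainly in RA-PBS animals 2 to 4, so it can add to the control levels of marked genes. Added control RNA makes an increase look smaller and a decrease look larger. For single genes this was not tested. A crystallin covariate is quoted below as an alternative fit. Only RA-PBS animal 1 among the controls had a crystallin share as low as O2-PBS, so that fit rests largely on this animal, which had the fewest genes with a count. Leaving out 1 library in turn gave 362 to 661 genes that rose, with 362, 375 and 371 without O2-PBS animals 5, 7 and 8, and 141 to 427 that fell, with 163, 148 and 141 without O2-PBS animals 5, 6 and 7. Taken apart, the 4 libraries with high Y-linked counts gave 0 calls (edgeR; 689 genes at an unadjusted p under 0.05) and the 4 with low counts 1333 higher and 1253 lower genes. Sex and oxygen cannot be fully told apart with 1 library on one side of each of these comparisons, and with the Y-linked counts as a covariate 383 genes rose and 198 fell.

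**Figure D2:**
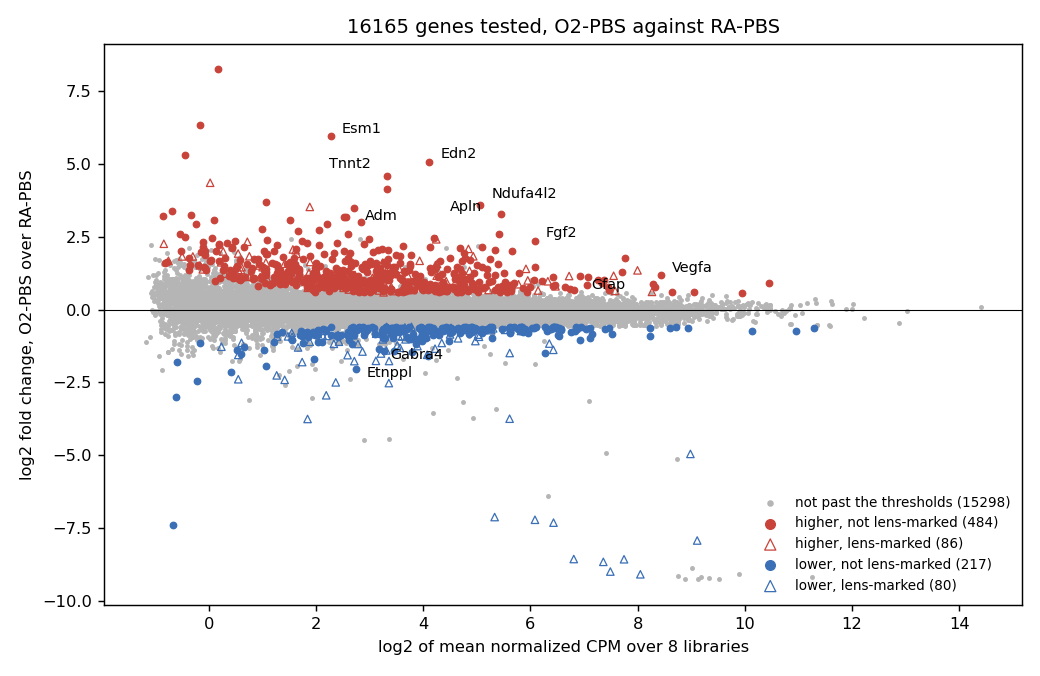
Each point is 1 of 16165 genes, with the log2 of its mean normalized CPM over the 8 libraries on the horizontal axis and its log2 fold change (O2-PBS over RA-PBS) on the vertical axis; red marks genes that rose (484 circles and 86 lens-marked triangles), blue genes that fell (217 circles and 80 lens-marked triangles), grey the rest. Esm1 and Edn2 stand highest among labelled genes, and most of the genes that fell furthest are lens-marked.

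The 4 markers shared the smallest adjusted p in the data. Gene levels are given in CPM, the count of a gene over the TMM-scaled library total, in parts per M. Esm1, which encodes endocan, a proteoglycan secreted by tip cells, was at 0, 0.107, 0.303 and 0.172 CPM in RA-PBS animals 1 to 4 and at 12.1, 6.14, 9.31 and 10.7 CPM in O2-PBS animals 5 to 8. Edn2, the endothelin made by stressed photoreceptors, was at 0.691, 0.323, 2.12 and 0.86 CPM in RA-PBS and at 27.6, 30.7, 44.6 and 31.8 CPM in O2-PBS. Esm1 was near the floor of 3 counts in room air, and both genes separated the groups completely, with log2 fold changes of 5.96 ± 0.45 (SE) and 5.08 ± 0.37. Fgf2, a growth factor with neuroprotective and angiogenic actions, was at 20.3, 19.2, 31.3 and 17.4 CPM in RA-PBS and at 131, 108, 124 and 90.8 CPM in O2-PBS, 5.15-fold higher. Vegfa, the main HIF-driven mitogen of endothelial cells, was at 215, 202, 217 and 217 CPM in RA-PBS and at 518, 425, 497 and 487 CPM in O2-PBS, 2.27-fold higher (log2 1.18 ± 0.09). Its change was the smallest of the 4, but controls spanned only 202 to 217 CPM, and the adjusted p was 0.000308 for each marker. All 4 kept their call in each of the 8 fits without 1 library. Nudt6, which overlaps Fgf2 on the opposite strand, differed by 1.19 ± 0.62 (adjusted p = 0.335); the strand setting of the counts is not given in the sources used here, so reads of the pair may not be fully separated.

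**Figure D3:**
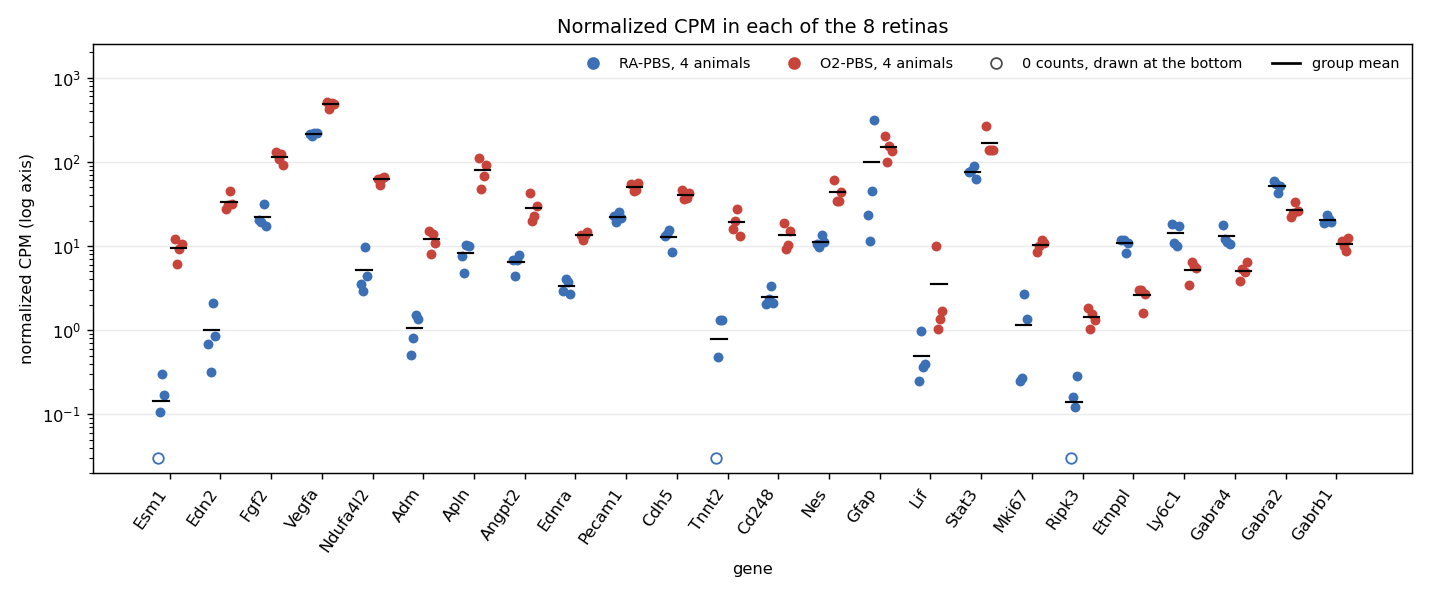
Normalized CPM (log axis) of 24 genes in each of the 8 retinas; blue points are the 4 RA-PBS and red points the 4 O2-PBS animals, black bars are group means, and open points at the bottom are libraries with 0 counts. Groups separate for every gene drawn except Gfap, where RA-PBS animal 4 at 313 CPM lies above all O2-PBS retinas.

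Hypoxia genes answered unevenly. Of 27 tested genes commonly induced by hypoxia, 5 rose (18.5%, against 3.53% of all tested genes) and 0 fell, and the list median was 0.24. Ndufa4l2, a mitochondrial protein that lowers respiratory activity in hypoxia, was at 3.58, 2.9, 9.7 and 4.36 CPM in RA-PBS and at 62.9, 53.5, 64.8 and 66.5 CPM in O2-PBS, 12.1-fold higher. Adm, the vasodilator and angiogenic peptide adrenomedullin, was at 0.502, 0.806, 1.51 and 1.38 CPM in RA-PBS and at 15.2, 8.09, 14 and 10.8 CPM in O2-PBS, 11.4-fold higher. Both were raised in every O2-PBS retina. Stc2, a secreted glycoprotein (log2 1.43 ± 0.25), and Loxl2, a lysyl oxidase that cross-links collagen (1.41 ± 0.23), rose with Vegfa. The other 22 targets did not pass; Slc2a1, the glucose transporter, stood at 320 ± 35.3 CPM (SD, n = 4) in RA-PBS and 370 ± 12.7 CPM in O2-PBS (adjusted p = 0.289), and Pdk1, which keeps pyruvate out of the mitochondrion, differed by 0.34 ± 0.09 with an adjusted p of 0.0520 but under the fold required. Among 11 regulators of the pathway only Egln3, a HIF prolyl hydroxylase that HIF itself induces, rose, from 4.65, 3.92, 5.94 and 4.64 CPM to 22.3, 13.3, 18.7 and 16.1 CPM; Egln1 differed by 0.34 ± 0.11 (adjusted p = 0.117). Of 20 tested genes of glycolysis and lactate transport 2 rose (10%, against 3.53% of all tested genes), and the median was 0.21. They were Pfkp, the platelet form of phosphofructokinase (log2 0.92 ± 0.13), and Slc16a3, a lactate exporter (0.70 ± 0.14).

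Secreted factors of vessel growth and several of their receptors rose. Of 32 tested ligands and receptors 13 rose, the marker Edn2 among them, and 1 fell (median 0.40). Among ligands, Apln, the peptide of the apelin receptor, was at 7.6, 4.84, 10.2 and 10.1 CPM in RA-PBS and at 112, 47.4, 67.2 and 90.2 CPM in O2-PBS, 9.69-fold higher. Angpt2, which loosens the vessel wall by antagonising Tie2, was at 6.78, 4.35, 6.85 and 7.8 CPM in RA-PBS and at 42.4, 19.7, 22.5 and 29.5 CPM in O2-PBS. Animal 5 held the top value of both genes and animal 6 the lowest O2-PBS value, and no O2-PBS retina reached down to the controls. Pgf, a ligand of VEGF receptor 1, rose by 1.92 ± 0.47 and is lens-marked, but its call was lost without O2-PBS animal 5 (adjusted p = 0.140). Among receptors Ednra, the endothelin A receptor, was at 2.95, 4.08, 3.76 and 2.69 CPM in RA-PBS and at 13.3, 11.8, 13.6 and 14.6 CPM in O2-PBS, 3.94-fold higher. The apelin receptor Aplnr (1.47 ± 0.21), the Tie2 partner Tie1 (1.40 ± 0.16), the lymphatic VEGF receptor Flt4 (1.02 ± 0.22) and the VEGF co-receptor Nrp1 (0.84 ± 0.16) rose as well. Kdr, the principal VEGF receptor, stood at 139 ± 42.0 CPM (SD, n = 4) and 210 ± 12.0 CPM and did not pass (adjusted p = 0.114), although all O2-PBS retinas were above all controls. Kdr was called with DESeq2 (adjusted p = 0.0254) and with the Y-linked covariate (edgeR, 0.0537), but not with voom or the crystallin covariate. Hgf, the hepatocyte growth factor, was the only member that fell (log2 -0.94 ± 0.26), and it lost its call in 6 of the 8 fits without 1 library (adjusted p up to 0.181).

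Tip cell genes rose as a group. All 13 listed tip cell and tuft genes were tested and rose (100%, against 3.53% of all genes). Their median log2 fold change was 1.93, with 13 calls in each fit without 1 library. The gene lists were chosen with earlier results of these data known, and this one holds the marker Esm1, so its share is no independent evidence. Beside Esm1, Apln and Angpt2, the potassium channel subunit Kcne3 rose from 0.103 ± 0.104 to 1.15 ± 0.393 CPM (SD, n = 4), the chemokine receptor Cxcr4 from 2.59 ± 0.628 to 9.86 ± 0.972 CPM and the pericyte-recruiting ligand Pdgfb from 6.89 ± 1.98 to 20.2 ± 5.95 CPM. The laminin chain Lama4 was at 15.4, 10, 16.3 and 9.06 CPM in RA-PBS and at 64.4, 46.9, 48.4 and 62.8 CPM in O2-PBS, and the adhesion protein Mcam was 4.14-fold higher. The Notch ligand Dll4, which restrains sprouting, rose by 1.57 ± 0.28, and Plvap, the diaphragm protein of leaky vessels, by 0.87 ± 0.17, the smallest change of the list. Only Nid2 was lens-marked.

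Genes of endothelial identity rose in part. Of 25 tested, 13 rose and 2 fell, with a median of 0.60; since whole retinas were sequenced, more cells of a type and more RNA per cell cannot be told apart. Pecam1, the junctional protein CD31, was at 22.5, 19.5, 25 and 21.2 CPM in RA-PBS and at 55, 44.8, 46.7 and 56 CPM in O2-PBS, 2.30-fold higher. The cadherin Cdh5 (3.16-fold), the sialomucin Emcn (3.04-fold), the transcription factor Sox18 (2.98-fold), von Willebrand factor Vwf (2.94-fold) and the TGF-beta co-receptor Eng (2.77-fold) rose more. In the opposite direction, Ly6c1, a surface protein of quiescent capillary endothelium, was at 18, 11, 10.1 and 17.5 CPM in RA-PBS and at 3.4, 6.43, 5.71 and 5.48 CPM in O2-PBS, 2.68-fold lower. The barrier transporter Slco1a4 fell by 1.34 on the log2 scale and is lens-marked. Slco1a4 was at 29 CPM in RA-PBS animal 1, which lacked lens RNA, and at 27, 19.1 and 31.9 CPM in RA-PBS animals 2 to 4. Both genes fell while Pecam1 rose in every O2-PBS retina. The tight junction protein Cldn5 rose by 0.79 ± 0.19 and lost its call without O2-PBS animal 8 (adjusted p = 0.108). Without 1 library 9 to 14 of the list rose.

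Of 26 tested genes of Notch, TGF-beta and norrin signalling in vessels, 6 rose and 0 fell (median 0.26, 4 to 7 rose without 1 library, the fewest without O2-PBS animals 5 and 8). These were Eng, the endothelial receptor kinase Acvrl1 (log2 0.86 ± 0.14), Tgfbr2 (0.89 ± 0.16), Tgfb1 (1.01 ± 0.24, lens-marked), Notch4 (0.94 ± 0.24) and the Notch target Heyl (1.11 ± 0.21). Tgfb1 and Notch4 each lost the call without O2-PBS animal 5 or 8 (highest adjusted p = 0.112 and 0.15), and Notch4 also without animal 6.

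Mural cell genes rose in part. Of 16 tested pericyte and smooth muscle genes 10 rose and 0 fell, with a median of 1.17, and all 16 had fold changes above 0 under each scaling. Tnnt2, cardiac troponin T, was at 0, 0.484, 1.33 and 1.32 CPM in RA-PBS and at 16.1, 20, 27.7 and 13.3 CPM in O2-PBS, 24.3-fold higher and among the largest changes of all genes. Cd248, endosialin of activated pericytes, was at 2.07, 2.37, 3.33 and 2.12 CPM in RA-PBS and at 18.9, 9.29, 10.3 and 14.9 CPM in O2-PBS. Neither gene overlapped between groups. Des, the intermediate filament desmin (log2 1.84 ± 0.20), Rgs5, a regulator of G protein signalling in pericytes (1.30 ± 0.16), the proteoglycan Cspg4, known as NG2 (1.21 ± 0.19), and Notch3 (1.13 ± 0.24) rose as well. Pdgfrb, the receptor that defines pericytes, stood at 25.3 ± 7.65 and 38.9 ± 5.92 CPM (SD, n = 4) and did not pass (adjusted p = 0.136), nor did smooth muscle actin Acta2 (adjusted p = 0.120). All O2-PBS retinas were above all controls for Pdgfrb, whereas Acta2 overlapped. Pdgfrb was called with DESeq2 (adjusted p = 0.0495) and with the Y-linked covariate (edgeR, 0.0457), but not with voom or the crystallin covariate. Acta2 was called with DESeq2 (0.0872) and with the crystallin covariate (edgeR, 0.0820), but not with voom or the Y-linked covariate. Without 1 library 9 to 11 of the list rose.

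Of 35 tested genes of matrix cross-linking, remodelling and adhesion, 18 rose and 0 fell (median 0.75, 15 to 18 without 1 library). Fn1, fibronectin, was at 97.3, 121, 124 and 54 CPM in RA-PBS and at 496, 248, 281 and 321 CPM in O2-PBS, 3.39-fold higher. Tgm2, which cross-links fibronectin, rose 3.59-fold, and the integrin chains Itga1 and Itga5 3.38-fold and 2.86-fold. Tgfbi, a TGF-beta-induced matrix protein, was at 1.57, 2.42, 5.09 and 2.01 CPM in RA-PBS and at 10.3, 8.84, 7.82 and 8.52 CPM in O2-PBS. RA-PBS animal 3, the control with most lens RNA, was the highest control for Tgfbi. For Fn1 it was close to animal 2 (124 and 121 CPM), and animal 4, which also carried lens RNA, was the lowest control. Whether lens RNA changed these levels was not tested. Biglycan, Bgn, rose most (log2 2.41 ± 0.40) and is lens-marked. Of 25 tested collagen and basement membrane genes 9 rose and 0 fell (median 0.65); 16 of the 25 are lens-marked, and 3 of the calls were of genes without the mark, among them Lama4 and Col5a2 (2.05 ± 0.25). The count of 9 fell to 6 without RA-PBS animal 4, O2-PBS animal 5 or 7 and rose to 15 without RA-PBS animal 3. With the crystallin covariate 17 of the list rose.

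**Figure D4:**
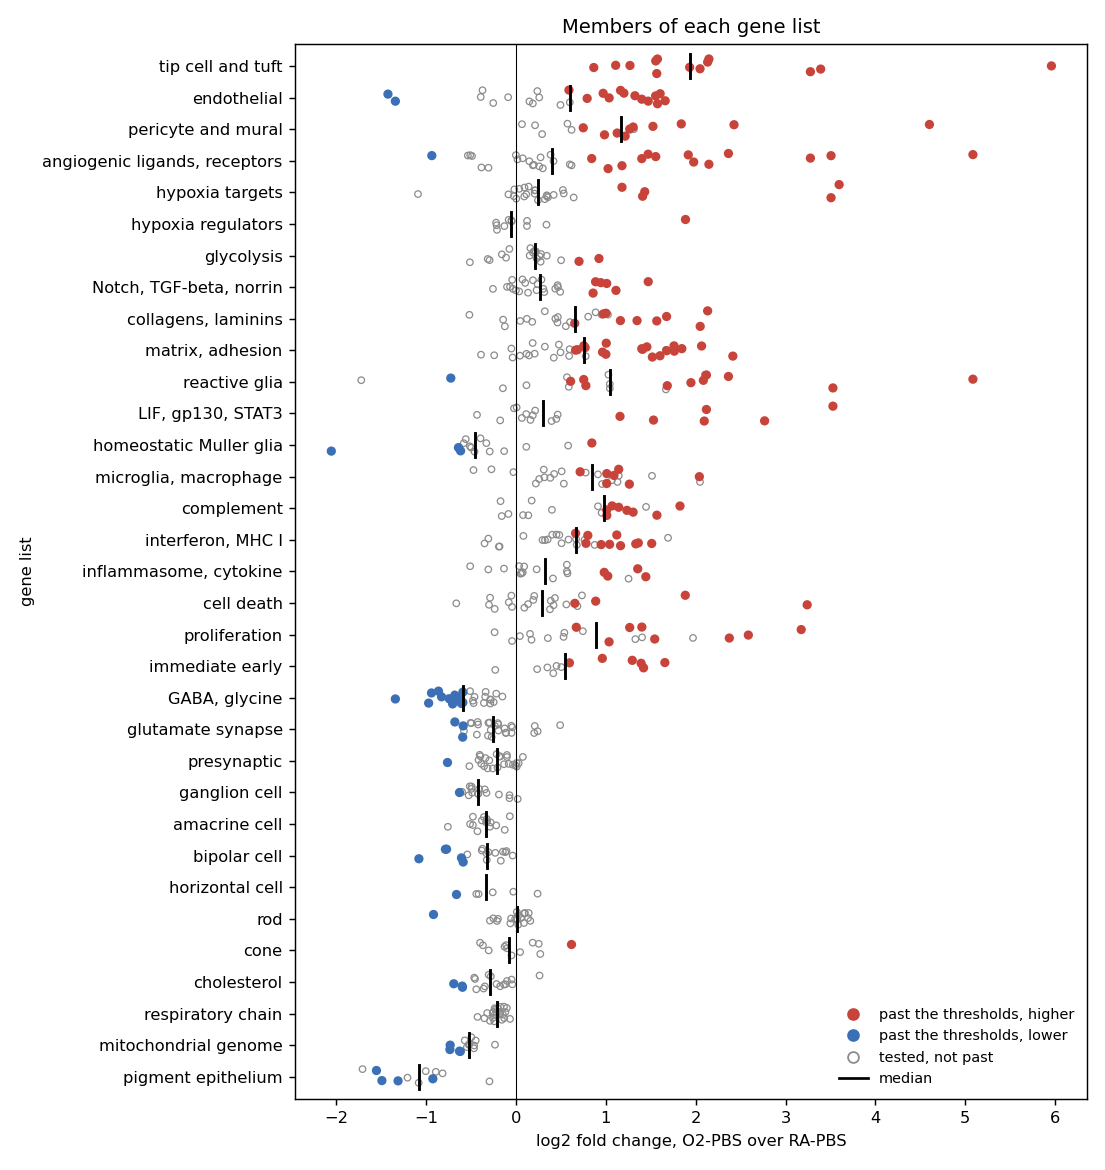
Log2 fold change (O2-PBS over RA-PBS, horizontal axis) of every tested member of 33 gene lists (rows); filled points passed the thresholds, red for higher and blue for lower, open points did not, and black bars are list medians. The medians run from 1.93 for tip cell and tuft genes to -0.59 for GABA and glycine genes and -1.08 for pigment epithelium genes, all of which are lens-marked.

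Of 21 tested genes of reactive glia 10 rose and 1 fell (median 1.04, 8 to 12 rose without 1 library). The increases include the markers Edn2 and Fgf2 given above. Edn2, the largest change of the list, was described there as made by stressed photoreceptors, and whole retinas do not show which cells made it. Of the 21 genes 8 are lens-marked, and 7 of the increases were of genes without the mark. Nes, the intermediate filament nestin, was at 10.6, 9.78, 13.3 and 11.2 CPM in RA-PBS and at 61.4, 34.1, 34.5 and 43.5 CPM in O2-PBS, 3.85-fold higher. Cebpd, an inflammatory transcription factor, was at 7.16, 6.07, 13.5 and 11.7 CPM in RA-PBS and at 68.9, 24.2, 39 and 35 CPM in O2-PBS. Prss56, a Muller glia protease linked to eye size, rose 3.21-fold. Gfap, the classical marker of gliosis, was at 23.4, 11.6, 44.6 and 313 CPM in RA-PBS and at 203, 98.1, 154 and 136 CPM in O2-PBS. RA-PBS animal 4 thus held the highest Gfap level of all 8 retinas, and the other 3 controls were below all O2-PBS retinas; the difference did not pass (adjusted p = 0.806), and without RA-PBS animal 4 it was 2.49 on the log2 scale and was called. Serpina3n, an acute phase protease inhibitor of reactive astrocytes, had the same high control, at 0.126, 0.967, 5.03 and 26.2 CPM in RA-PBS against 54.6, 20, 45.9 and 19 CPM in O2-PBS. Spp1, osteopontin, which ganglion cells also make, fell by 0.73 on the log2 scale. Vim (0.61 ± 0.19) is lens-marked and lost its call in 7 of the 8 fits without 1 library.

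The cytokine LIF and the gp130 pathway that it drives through STAT3 in Muller glia gave 6 higher and 0 lower of 18 tested genes (median 0.30). Lif was at 0.251, 0.967, 0.364 and 0.401 CPM in RA-PBS and at 9.86, 1.03, 1.37 and 1.7 CPM in O2-PBS. Stat3 was at 74.9, 77.8, 87.9 and 61.9 CPM in RA-PBS and at 263, 137, 138 and 137 CPM in O2-PBS. Its feedback inhibitor Socs3 was at 2.83, 2.1, 4.85 and 4.42 CPM in RA-PBS and at 28.3, 9.58, 13 and 9.74 CPM in O2-PBS. O2-PBS animal 5 stood far above the other 3 in each of these genes, and the remaining O2-PBS retinas were still above every control. Without animal 5 the log2 fold change of Lif was 1.43 and no longer passed (adjusted p up to 0.205 over the 8 fits), and Lif also lost its call without RA-PBS animal 1, 3 or 4 or O2-PBS animal 8; Stat3 and Socs3 passed in each fit without 1 library. Bcl3, an atypical I-kappa-B protein induced by STAT3, rose 11.5-fold, from 0.44, 0.591, 0.606 and 0.688 CPM to 9.27, 4.82, 8.69 and 4.44 CPM, and Osmr, the oncostatin M receptor, rose by 1.53 ± 0.38; both are lens-marked, and Osmr lost its call without RA-PBS animal 2 (adjusted p = 0.146). The shared receptor chain Il6st did not pass (0.40 ± 0.16, adjusted p = 0.204).

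Of 15 tested genes of resting Muller glia 3 fell (20%, against 1.84% of all tested genes) and 1 rose (6.67%, against 3.53%). The median was -0.46, with 12 of the 15 below 0. Etnppl, an ethanolamine phosphate lyase of astrocytes and Muller glia, was at 11.9, 11.9, 8.36 and 10.9 CPM in RA-PBS and at 3, 3.04, 1.61 and 2.68 CPM in O2-PBS, 4.16-fold lower. It passed in each fit without 1 library. The potassium channel Kcnj10 (log2 -0.64 ± 0.14) and the retinaldehyde-binding protein Rlbp1 (-0.62 ± 0.15) fell, but lost their calls in 3 and 4 of the 8 fits without 1 library. Without RA-PBS animal 1 or O2-PBS animal 5, 1 gene of the list fell, and 5 fell without RA-PBS animal 3 or 4. The count was 1 with upper quartile scaling or library totals and 9 with the crystallin covariate. Glutamine synthetase Glul, at 2981, 2189, 1904 and 1639 CPM in RA-PBS and 1406, 1518, 1548 and 1693 CPM in O2-PBS, did not pass (adjusted p = 0.121). Crym, a thyroid hormone-binding protein and no lens crystallin in the mouse, rose by 0.84 ± 0.13.

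Microglia and macrophage genes rose in part. Of 26 tested 7 rose (26.9%, against 3.53% of all tested genes), 0 fell and 19 did not pass. The median was 0.84, against -0.02 for all genes, and 10 of the 26 were lens-marked. The 4 calls of genes without the mark were Itgam, Cx3cr1, C1qa and C1qb. Of these only Itgam kept its call in each fit without 1 library, and C1qa and C1qb lost theirs in 7 and 6 of the 8 fits. Itgam, the integrin chain CD11b, was at 4.02, 5.64, 5.64 and 4.19 CPM in RA-PBS and at 10.6, 10.1, 10.6 and 8.1 CPM in O2-PBS, 2.02-fold higher. Cx3cr1, the fractalkine receptor, rose 1.64-fold but not without O2-PBS animal 6 or 7, and Cd68, a lysosomal protein of phagocytes that is lens-marked, rose 2.40-fold. Outside the list, Lcp1, the leukocyte actin bundler L-plastin, was at 5.78, 5.05, 7.45 and 5.33 CPM in RA-PBS and at 23.8, 18.6, 21.2 and 22.6 CPM in O2-PBS. Lcp1 was named after its values were seen, for having the same adjusted p as the 4 markers. H2-Ab1, a chain of MHC class II (log2 2.04 ± 0.35), is lens-marked. Mrc1, which encodes CD206, did not pass (log2 2.05 ± 0.74, adjusted p = 0.152), although all O2-PBS retinas were above all controls. Mrc1 is lens-marked and was at 0 CPM in RA-PBS animal 1. It was called with voom (adjusted p = 0.0668) and with the crystallin covariate (edgeR, 0.0279), but not with DESeq2 or the Y-linked covariate. Without 1 library 4 to 10 genes of the list rose, with 4 without O2-PBS animal 6 or 7, and with the Y-linked covariate 4 rose. Of 13 neutrophil and lymphocyte genes 3 had enough counts to be tested and 0 passed.

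Of 18 tested complement components and regulators 8 rose and 0 fell (median 0.98). C1ra, a serine protease of the C1 complex, was at 1.26, 0.914, 1.7 and 0.975 CPM in RA-PBS and at 3, 2.87, 2.98 and 3.1 CPM in O2-PBS, and the receptor C3ar1 was at 0.565, 1.02, 1.15 and 1.09 CPM in RA-PBS and at 2.87, 2.35, 3.72 and 2.5 CPM in O2-PBS. C3, the central component, rose 2.10-fold. C1qa and C1qb (log2 1.01 ± 0.30 and 1.14 ± 0.32) passed with all 8 libraries, but RA-PBS animal 4 at 10.4 CPM for both lay near the O2-PBS values, and their calls were lost in 7 and 6 of the 8 fits without 1 library. The list count fell to 4 without O2-PBS animal 5 or 7 and to 5 without RA-PBS animal 1 or O2-PBS animal 6 or 8, and to 3 with the Y-linked covariate. C4b, at 14.6 ± 12.8 and 39.8 ± 6.03 CPM (SD, n = 4), did not pass (adjusted p = 0.167), although all O2-PBS retinas were above all controls. C4b was called with voom (adjusted p = 0.0369) and with the crystallin covariate (edgeR, 0.0247), but not with DESeq2 or the Y-linked covariate.

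Of 28 tested interferon-stimulated and MHC class I genes 10 rose and 0 fell (median 0.67). Irf7, the transcription factor that amplifies type I interferon, rose from 6.41, 4.62, 9.7 and 7.28 CPM to 24.4, 20.1, 18 and 17.2 CPM, and Oasl2, an antiviral effector, 2.18-fold. The class I heavy chains H2-K1 (2.06-fold) and H2-D1 (1.74-fold), the peptide transporter Tap1 (1.72-fold) and the immunoproteasome subunit Psmb9 (2.57-fold) rose too. Tap1 and Psmb9 each lost the call in 4 of the 8 fits without 1 library, and the list count fell to 4 without O2-PBS animal 7 and to 6 without O2-PBS animal 5, 6 or 8 or with the Y-linked covariate.

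Inflammasome genes themselves were near the lower limit of the data. Of 27 listed inflammasome, pyroptosis and cytokine genes 18 could be tested; Nlrp3, Casp1, Casp4, Il1b, Il6 and Tnf were among the 9 with too few counts. Of the 18 tested, 4 rose and 0 fell (median 0.32). Pycard, which encodes the adaptor ASC, was at 1.63, 1.94, 2.24 and 3.04 CPM in RA-PBS and at 2.68, 3.5, 3.48 and 3.53 CPM in O2-PBS, overlapping between groups (adjusted p = 0.227). Gsdmd, the pore former of pyroptosis, was at 0, 0.699, 1.15 and 1.32 CPM in RA-PBS and at 2.09, 1.38, 2.11 and 2.07 CPM in O2-PBS. No O2-PBS retina was below a control for Gsdmd, but the spread in RA-PBS left it short of the threshold (adjusted p = 0.297), and Il18 did not pass either (-0.51 ± 0.21, adjusted p = 0.217). The genes that rose were the TNF receptors Tnfrsf1a (2.56-fold) and Tnfrsf1b (2.72-fold), the NF-kappa-B subunit Nfkb2 (1.98-fold) and the adhesion molecule Icam1 (2.03-fold). Without O2-PBS animal 5, 7 or 8 or with the Y-linked covariate only 2 genes passed as higher, 7 did with the crystallin covariate, and Nfkb2 and Icam1 lost their calls in 5 and 3 of the 8 fits.

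Of 22 tested cell death genes 4 rose and 0 fell (median 0.29), and 2 of the 4 belong to necroptosis, a regulated form of lysis. Ripk3, the kinase of the necrosome, was at 0, 0.161, 0.121 and 0.287 CPM in RA-PBS and at 1.83, 1.03, 1.55 and 1.34 CPM in O2-PBS. Its substrate Mlkl, which ruptures the membrane, was at 0.251, 0.752, 0.242 and 0.344 CPM in RA-PBS and at 1.76, 1.15, 1.68 and 1.46 CPM in O2-PBS. Both were low throughout and did not overlap between groups. Casp8 (log2 0.89 ± 0.25) and Casp6 (0.66 ± 0.13) rose. Without O2-PBS animal 5 or 7 only 2 members passed; Mlkl lost its call in those fits (highest adjusted p = 0.104) and Casp8 in 5 fits, whereas Ripk3 and Casp6 kept theirs.

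Of 20 tested cell cycle genes 8 rose and 0 fell (median 0.89, 7 to 10 rose without 1 library, 13 with the crystallin covariate). The list took 0.0154 to 0.0204% of counts in RA-PBS and 0.0238 to 0.0287% in O2-PBS. Mki67, the proliferation antigen, was at 0.251, 0.269, 2.67 and 1.38 CPM in RA-PBS and at 8.49, 9.93, 11.9 and 10.9 CPM in O2-PBS, 9.03-fold higher. Top2a, topoisomerase II alpha, was 6.00-fold and the mitotic kinase Cdk1 5.18-fold higher, and the replication helicase subunits Mcm3 and Mcm6 rose 2.64-fold and 2.05-fold. The 2 controls with the highest Mki67, animals 3 and 4, carried lens RNA. RA-PBS animal 2, also with lens RNA, was at 0.269 CPM and animal 1, which lacked it, at 0.251 CPM. A link between Mki67 and lens RNA was not tested. Every O2-PBS retina was above all controls. Immediate early genes, which respond within minutes to stimulation or stress, rose in 6 of 12 tested (median 0.55, 5 or 6 without 1 library): Fosb 3.15-fold, Atf3 2.67-fold, Junb 2.62-fold, Fosl2 2.45-fold and Fos 1.95-fold among them. Fosl2 and Junb were highest in O2-PBS animal 5, at 37 and 60.4 CPM, while Egr1 overlapped between groups (0.50 ± 0.28, adjusted p = 0.366).

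**Figure D5:**
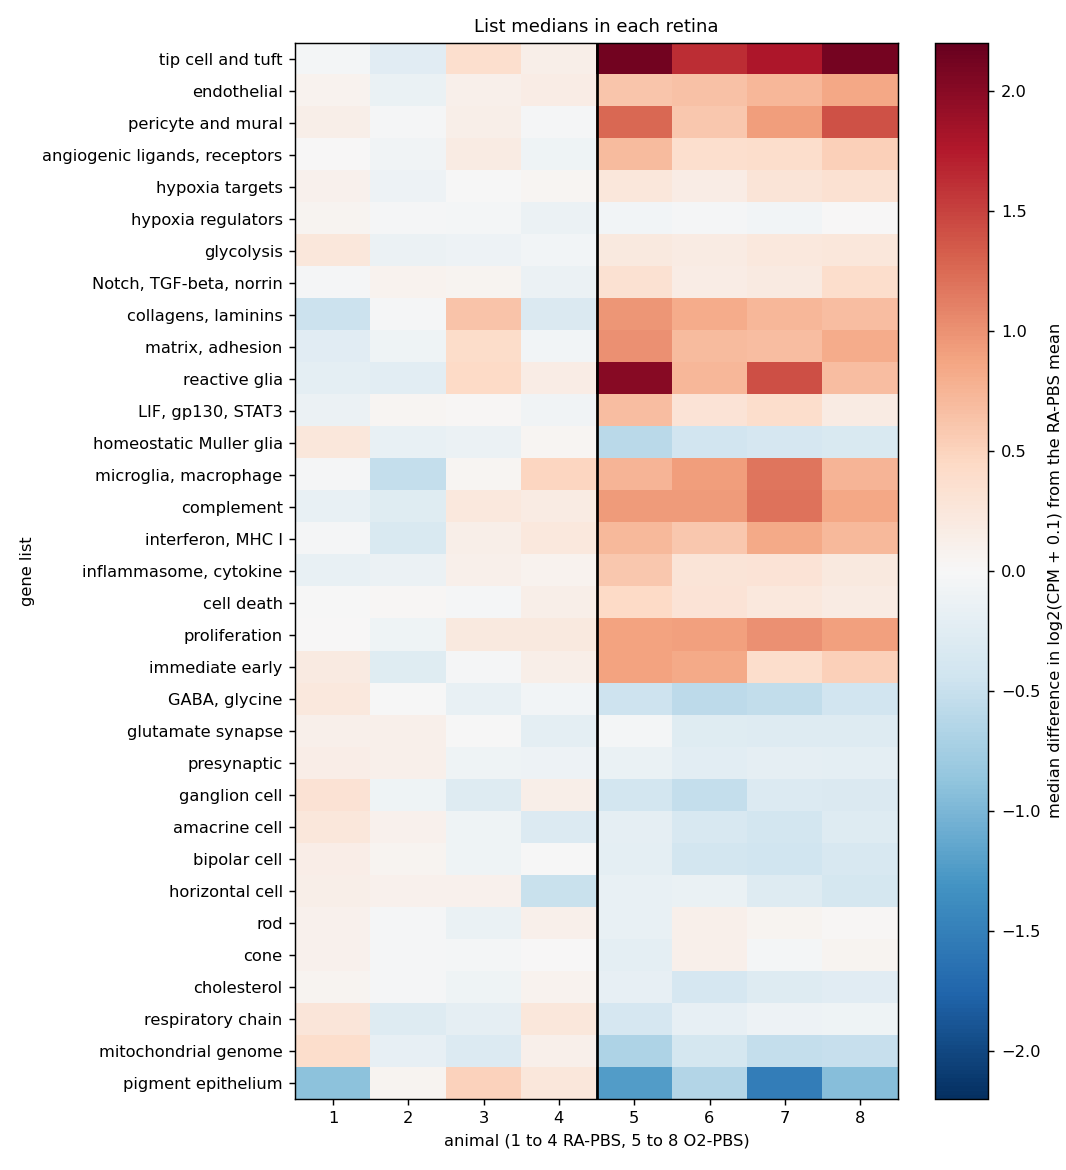
Median over list members (rows, 33 lists) of log2(CPM + 0.1) minus the mean of the 4 RA-PBS retinas, in each of the 8 retinas (columns); red is above and blue below the room air mean. Tip cell genes reach 1.63 to 2.12 in all O2-PBS retinas, reactive glial genes vary from 0.678 to 2.01, and GABA and glycine genes lie between -0.413 and -0.573.

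All 28 tested genes of GABA and glycine receptors, synthesis and transport had fold changes below 0, which also held under each of the 3 other scalings. Of them 13 fell (46.4%, against 1.84% of all genes), with a median of -0.59. This list too was chosen with earlier results of these data known. The decreases lay in subunits of the GABA-A and glycine receptors, the chloride channels through which amacrine cells inhibit. Gabra4 was at 18, 12.1, 11.3 and 10.6 CPM in RA-PBS and at 3.79, 5.28, 4.97 and 6.39 CPM in O2-PBS, 2.54-fold lower. Gabra2 was at 59.7, 53.9, 42.4 and 51.3 CPM in RA-PBS and at 22.1, 24.6, 33.1 and 25.8 CPM in O2-PBS, 1.96-fold lower. Gabrb1 was at 18.7, 23.2, 20.8 and 19.3 CPM in RA-PBS and at 11.6, 9.93, 8.63 and 12.6 CPM in O2-PBS, 1.92-fold lower. These 3 subunit genes, which lie in 1 cluster of the genome, separated the groups and passed in each fit without 1 library, as did the glycine receptor subunits Glra2 (log2 -0.83 ± 0.15) and Glra3 (-0.74 ± 0.14). Gabra3 and Glra4 fell but lost their calls in 5 and 3 of the 8 fits. Gad1, a GABA-synthesising enzyme, did not pass (-0.48 ± 0.15, adjusted p = 0.106). The count of 13 fell to 8 without RA-PBS animal 1 or O2-PBS animal 6 and to 7 without O2-PBS animal 5, and was 8 with library totals.

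Of the excitatory and presynaptic genes below, 10.7 and 4% fell, against 1.84% of all tested genes. Of 28 tested genes of glutamate receptors and scaffolds 3 fell and 0 rose (median -0.25): the kainate receptor subunits Grik2 (log2 -0.68 ± 0.12) and Grik1 (-0.59 ± 0.13) and the AMPA receptor subunit Gria3, at 73.3, 69.9, 65.1 and 68.8 CPM in RA-PBS and 42.9, 46.1, 46.7 and 48 CPM in O2-PBS. Gria3 lay so near the fold of 1.5 (1.51-fold lower, adjusted p = 0.00248) that it lost its call in 3 fits without 1 library while its adjusted p stayed at or below 0.0145, and 1 member of the list fell without RA-PBS animal 1. The count was also 1 under each of the 3 other scalings, with DESeq2 and with the Y-linked covariate, and 6 with the crystallin covariate. Of 25 synaptic vesicle and active zone genes 1 fell, Cplx1, a complexin of conventional synapses (1.70-fold lower; 5 fell with the crystallin covariate), and Snap25 did not pass (-0.35 ± 0.12, adjusted p = 0.142).

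Of 16 tested retinal ganglion cell genes 1 fell (6.25%, against 1.84% of all tested genes) and 15 were below 0 (median -0.42). Nefl, the light neurofilament, stood at 596 ± 119 CPM (SD, n = 4) in RA-PBS and 385 ± 14.2 CPM in O2-PBS, and lost its call without RA-PBS animal 1 or 4. In this list 4 genes fell without RA-PBS animal 2 or 3, 0 with upper quartile scaling or library totals, 2 with DESeq2 and 11 with the crystallin covariate. Nrn1, a ganglion cell growth factor, did not pass (-0.60 ± 0.20, adjusted p = 0.121). Of 15 amacrine cell genes 0 passed (median -0.33), including Th, the dopamine enzyme, at 6.66, 3.33, 2.91 and 2.81 CPM in RA-PBS and 2.15, 2.07, 2.36 and 2.68 CPM in O2-PBS; 1 fell without RA-PBS animal 3, 2 without RA-PBS animal 4 and 7 with the crystallin covariate. Of 17 bipolar cell genes 5 fell and all 17 were below 0 (median -0.33). The tachykinin receptor Tacr3 of OFF cone bipolar cells was at 38.3, 31.5, 20.6 and 30.2 CPM in RA-PBS and at 16.6, 10.7, 14.5 and 15.2 CPM in O2-PBS, 2.11-fold lower, and the transcription factor Vsx1 of cone bipolar cells was 1.72-fold lower. Both passed in each fit without 1 library, while 2 members of the list fell without RA-PBS animal 1 and 3 without RA-PBS animal 4 or O2-PBS animal 5, 6 or 7. Under upper quartile scaling or library totals 16 of the 17 were below 0 and 3 fell. Of 6 horizontal cell genes 1 fell (16.7%, against 1.84% of all tested genes). This was Calb1, the calcium buffer calbindin (-0.67 ± 0.18), and it lost its call in 5 of the 8 fits.

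Among photoreceptor genes 1 rod gene fell (5%, against 1.84% of all tested genes) and 1 cone gene rose (8.33%, against 3.53%). Of 20 tested rod genes 0 rose and 1 fell, with a median of 0.01, and of 12 cone genes 1 rose and 0 fell, with a median of -0.07. The rod gene was Guca1a, the guanylate cyclase activator GCAP1, at 473, 362, 277 and 452 CPM in RA-PBS and 179, 231, 196 and 221 CPM in O2-PBS, 1.89-fold lower. The cone gene was Gnb3, a G protein subunit shared with ON bipolar cells, at 362, 302, 312 and 295 CPM in RA-PBS and 467, 503, 520 and 450 CPM in O2-PBS, 1.53-fold higher. Guca1a passed in each fit without 1 library, and Gnb3 lost its call without O2-PBS animal 7, where its change fell below the fold required. Arr3, cone arrestin, differed by -0.40 ± 0.12 (adjusted p = 0.0810, under the fold required).

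Of 18 tested genes of cholesterol synthesis and sterol regulation 3 fell (16.7%, against 1.84% of all tested genes) and 0 rose (median -0.29). Those that fell included Idi1, an enzyme of the pathway (1.62-fold lower), and the regulator Insig1 (1.51-fold lower). Only 1 of the list fell without RA-PBS animal 1 or O2-PBS animal 6 or 7, under each of the 3 other scalings, with DESeq2 and with the Y-linked covariate, and 5 fell with the crystallin covariate. All 23 tested nuclear genes of the respiratory chain were below 0 and 0 passed (median -0.21); 22 were below 0 with library totals and 21 without RA-PBS animal 1. Of 13 genes of the mitochondrial genome 4 fell and all were below 0 (median -0.52); mt-Nd1, a subunit of complex I, was at 3314, 2088, 1877 and 2624 CPM in RA-PBS and at 1330, 1657, 1514 and 1448 CPM in O2-PBS. RA-PBS animals 1 and 4 were the highest for mt-Nd1, and the count depended on single libraries: 0 of the 13 passed without RA-PBS animal 1, 7 and 8 without RA-PBS animal 2 or 3, 2 without RA-PBS animal 4 or O2-PBS animal 6, and 1 without O2-PBS animal 5, 7 or 8. The count was 2 with upper quartile scaling or library totals and 12 with the crystallin covariate. Among antioxidant genes 1 of 22 rose, the aryl hydrocarbon receptor Ahr (1.77-fold), and 1 fell, the quinone reductase Nqo1 (1.92-fold lower, lens-marked, not without O2-PBS animal 6). Each made up 4.55% of that list, near the 3.53% higher and 1.84% lower of all tested genes. None of 13 tested circadian clock genes passed (median -0.07).

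In the neurotrophic and insulin-like growth factor list 5 of 18 tested genes rose and 2 fell (median 0.17); 3 of the increases and 1 of the decreases were lens-marked, and 2 rose and 1 fell with the Y-linked covariate. Igfbp3, an IGF-binding protein with a protective role in retinal vessels, was at 11.1, 10.5, 20.4 and 12.7 CPM in RA-PBS and at 56.3, 37.6, 40.3 and 45.6 CPM in O2-PBS, 3.29-fold higher. Hgf and Igfbp6 fell, Igfbp6 by 1.28 on the log2 scale; it is lens-marked and lost its call in 6 of the 8 fits. Without RA-PBS animal 1 or O2-PBS animal 5 or 8 the list gave 3 higher genes, and without RA-PBS animal 1 or 4 or any 1 O2-PBS animal it gave 0 lower.

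Outside the lists, the largest increases among genes with a mean of 1 CPM or more that separated the groups included Lad1, ladinin of basement membranes, at 1.38, 0.323, 1.88 and 0.803 CPM in RA-PBS and 26.8, 16.7, 19.9 and 12.6 CPM in O2-PBS, and Ecel1, an endopeptidase induced in injured neurons, at 0, 0.107, 0.606 and 0.459 CPM in RA-PBS and 3.33, 3.84, 5.83 and 2.56 CPM in O2-PBS. Lad1 was 17.5-fold higher and Ecel1 rose by 3.70 on the log2 scale. Rpl14-ps1, a pseudogene that shares sequence with a ribosomal protein gene and is therefore uncertain, had 0 counts in all RA-PBS libraries and 147 in O2-PBS, at least 51.8-fold higher when 3 counts over the group are taken as the floor.

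The genes with the largest decreases were mostly lens-marked. Sox10, a transcription factor of melanocytes and myelinating glia, was at 1.51, 2.2, 1.15 and 21.9 CPM in RA-PBS and at 0.457, 0.689, 0.497 and 0.304 CPM in O2-PBS, with RA-PBS animal 4 far above the rest, and it passed in 3 of the 8 fits without 1 library. Cd24a, a surface glycoprotein of immature cells, was at 8.48, 57.8, 245 and 53.3 CPM in RA-PBS and 6.21 to 7.77 CPM in O2-PBS, with the order of the controls that of their crystallin shares except between animals 2 and 4. Cd24a passed in 2 of the 8 fits, and a link with lens RNA was not tested. Among genes without the mark, the transport ATPase Atp13a5, a gene of brain pericytes, was 3.86-fold lower in O2-PBS, and P2rx2, an ATP-gated channel, 3.28-fold lower; P2rx2 lost its call without O2-PBS animal 5 (adjusted p = 0.112). A further 4 unmarked genes were chosen after their values were seen as the next in size or the smallest in p. Folh1, a glutamate carboxypeptidase, was at 18.8, 20.6, 19.9 and 22.4 CPM in RA-PBS and at 5.22, 8.15, 7.2 and 9.01 CPM in O2-PBS, and Olfm4, a secreted olfactomedin, was at 16, 15.4, 13 and 19.3 CPM in RA-PBS and at 5.09, 6.71, 5.83 and 6.33 CPM in O2-PBS. Fam107a, an actin-bundling protein of astrocytes, was 3.01-fold and Spc25, a kinetochore protein, 2.80-fold lower. Spc25 fell while the other mitotic genes named above rose.

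Lens genes themselves were higher in the 3 controls that held lens RNA. Of 21 tested lens genes 0 rose and 11 fell, with a median log2 fold change of -8.89, and every 1 of the 21 was lens-marked. Cryab, alpha-B crystallin, which retinal cells also make, was at 25.9, 600, 2424 and 877 CPM in RA-PBS and at 25.5, 38.1, 32.7 and 30 CPM in O2-PBS, and with RA-PBS animal 1 as the only control its log2 fold change was 0.33 (adjusted p = 0.213). The lens-free control thus stood at the O2-PBS level, and without that animal all 21 lens genes passed as lower. The number was 2, 5 and 4 without RA-PBS animal 2, 3 or 4, 1 without O2-PBS animal 5, 6 or 7 and 0 without O2-PBS animal 8. Of 11 tested pigment epithelium and ciliary genes 4 fell, all 11 were below 0 and all 11 lens-marked (median -1.08). Rpe65, the isomerase of the visual cycle, was at 11, 31.8, 29.9 and 28 CPM in RA-PBS and at 8.49, 11.5, 2.67 and 11.6 CPM in O2-PBS. The 3 high controls for Rpe65 were those with lens RNA, and a link was not tested. The count for this list was 8 without RA-PBS animal 1, 0 without RA-PBS animal 3 or 4 or O2-PBS animal 5 or 6 and 1 without RA-PBS animal 2 or O2-PBS animal 7 or 8. With the crystallin level as a covariate 0 pigment epithelium genes and 2 lens genes fell, with the Y-linked covariate 1 and 0, and with DESeq2 7 and 21.

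The genes that the study itself names were looked up last; they were chosen by the study on these samples and are no independent evidence of direction. Of 19 genes named as raised by hyperoxia 17 passed as higher (median 1.01), 12 to 17 of them without 1 library and 12 without O2-PBS animal 5. The actin linker Msn rose 2.75-fold, the tubulin deglutamylase Agtpbp1 1.83-fold and the vascular adhesion enzyme Aoc3 2.32-fold. Gpr4, a proton-sensing receptor (log2 0.61 ± 0.25, adjusted p = 0.208), and Clic4 (0.55 ± 0.17, adjusted p = 0.0855, under the fold required) did not pass. Of 9 genes named as lowered 5 fell, all 9 being below 0 (median -0.63). Serpini1, neuroserpin, was at 72.8, 60, 50.4 and 85.9 CPM in RA-PBS and at 39.2, 39.4, 43.9 and 45.9 CPM in O2-PBS, and Fut9 was 1.55-fold lower. Fgf13, Cdh18, Bend6 and Gap43 did not pass, and the count of 5 fell to 1 without RA-PBS animal 4 or O2-PBS animal 5 or 6, was 2 without RA-PBS animal 1, 3 without O2-PBS animal 7 or 8, with upper quartile scaling, library totals, voom or the Y-linked covariate, and 8 without RA-PBS animal 3. Of 8 genes that the study followed by qRT-PCR 4 could be tested here, and 1 of them, Vegfa, passed. With the crystallin covariate 3 passed as higher, Gsdmd and Pycard among them, and 1, Il18, as lower. That fit rests largely on RA-PBS animal 1, where Gsdmd was at 0 CPM. The log2 fold change of Gsdmd was 1.25 in the main fit and 3.83 with the covariate.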

How the data were processed

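Retinal polyadenylated RNA of 8 mice was compared, with the animal as the replicate. Since each animal gave 1 library, p-values measure the spread between these animals and take them as independent. Litter is not in the labels, so mice of a group may share a litter, which the p-values do not account for. The deposited values are estimated counts per gene, which the authors obtained with Kallisto on mouse build GRCm39 and summed to genes with tximport; such estimates share reads among similar transcripts, and 35.4 to 44.4% of the values in these libraries were not whole. They were rounded here. Genes were filtered with filterByExpr, scaled by TMM and tested with the quasi-likelihood F test of edgeR 4.0.16 (R 4.3.3) on the 8 libraries alone, and p-values were adjusted by Benjamini-Hochberg over the 16165 genes tested; fold changes are given on the log2 scale with standard errors. CPM are counts over the TMM-scaled library total, in parts per M. The 3 tests were run on simulated counts with 1 dispersion for all genes and 200 genes changed by 1 fixed fold. That check covered neither lens RNA that differs between libraries nor changes near the thresholds. The files hold no coordinates, so promoters came from RefSeq, matched by symbol for 12066 of 16153 tested symbols. The crystallin, Y-linked and replicate alternatives, DESeq2 1.42.0, limma 3.58.1 voom, and other scalings and filters are given in the closing section.

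Members and gene lists were chosen with earlier results of these data known. Named genes were the 4 markers, the 12 largest changes in each direction with a mean of at least 1 CPM, no overlap and no place in the lens list, up to 4 members past the thresholds with the largest change and up to 2 abundant members not past them from each list, and the genes the study names. Many further list members, and decreased genes without a lens mark, fall outside that rule and were chosen after their values were seen. Repeated names count once, and a few genes are not reported here.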

Additional observations from a re-analysis of the deposited data

Results flagged for a closer look

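Single retinas stood far from the other 3 of their group, by a gap above Dixon's 95% critical share of the group's range, in 26 of 424 groups of values checked, where chance gives about 1 in 20. O2-PBS animal 5 held 8 of these values: Lif at 9.86 CPM, Stat3 at 263 CPM, Osmr at 52.6 CPM, Il6st at 195 CPM, Junb at 60.4 CPM, Fosl2 at 37.0 CPM and Pgf at 8.29 CPM were above, and Pycard at 2.68 CPM was below the other O2-PBS retinas. In RA-PBS, animal 4 stood high for Gfap (313 CPM) and Sox10 (21.9 CPM), animal 3 for Tie1 (16.1 CPM) and the lens factor Hsf4 (17.5 CPM), and animal 1 for Th (6.66 CPM) and Trp53i11 (23.3 CPM). RA-PBS animal 2 was apart for Vegfa, at 202 CPM.

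O2-PBS animal 6 was apart for Stc2 (9.87 CPM), H2-K1 (24.7 CPM), Gsdmd (1.38 CPM) and mt-Nd2 (978 CPM), animal 7 for Crym (139 CPM) and C1qb (16.2 CPM), and animal 8 for Cldn5 (72.3 CPM) and Gabra3 (27.9 CPM). Among library properties, RA-PBS animal 1 had the fewest genes with a count (17615), O2-PBS animal 6 the highest crystallin share of its group (0.0158%) and O2-PBS animal 8 the high Y-linked sum (259 CPM over the raw total). Outside the comparison, crystallin genes took 59.0% of the counts in O2-IC100 animal 10. Causes were not tested.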

How the results depend on the processing

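Against 570 higher and 297 lower genes, DESeq2 gave 654 and 347, voom 615 and 243, and 829 and 798 of the 867 calls were shared with them. Lower genes numbered 196 with library totals and 196 at an adjusted p under 0.05. With a fold of at least 2 there were 348 higher and 78 lower genes, and 726 lower without a fold. Fitting all 12 libraries gave 129 and 4 (1174 genes at an unadjusted p under 0.05), and 682 and 364 without the lens-rich O2-IC100 library. The crystallin covariate gave 1850 and 1063, both covariates 1886 and 1278, and RA-PBS animal 1 as the only control 2984 and 1332. The 4 libraries with high Y-linked counts gave 0 and 0 (edgeR; 689 genes at an unadjusted p under 0.05) and the 4 with low counts 1333 and 1253; a lone library is there assumed to vary like the others. The last 3 fits and the lens mark were chosen after seeing the data. Fits with the crystallin covariate rest largely on RA-PBS animal 1, the only control with a crystallin share as low as O2-PBS. Leaving out 1 library gave 362 to 661 higher and 141 to 427 lower genes. The log2 fold change of Cryab was reversed to 0.33 with RA-PBS animal 1 as the only control, and that of Gfap to -1.05 in the libraries with low Y-linked counts; the cause was not tested. Of 174 genes past the thresholds that were followed one by one, 117 remained so in all 8 fits without 1 library. No paired analysis was possible because the animal numbers are not shared between groups. Counts near 3 per library, as for Esm1 in RA-PBS, limit the precision of its fold change.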
